A study of Mus musculus with 10 samples.

Results

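The baseline gene expression profile of WT splenic cDC1s was described from 3 of the 10 arrays of the series, those whose titles give the genotype as WT. The other arrays measured Zeb2 KO cDC1s (n = 3), Nfil3 Zeb2 DKO cDC1s (n = 2) and Zeb2 Id2 DKO cDC1s (n = 2), so that a deletion of Zeb2 was shared by all 7 mutant arrays and by no WT array. The driver of each deletion, the strain, age and sex of the mice and the gate of the sort are not given in the sources used here. According to the labels, enzymes (collagenase B with DNase I) freed the spleen cells, red cells were lysed, cDC1s were sorted, and total RNA was amplified and hybridized to Affymetrix arrays. The labels do not say whether replicates came from separate animals, so errors and p-values cover the spread of these arrays alone, and it may be technical. Each sample was a bulk RNA sample, in which fewer cells of a type and less RNA per cell cannot be told apart.

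Conventional type 1 dendritic cells (cDC1s) are the antigen-presenting cells that take up dead cells and pathogens and display their peptides on MHC class I to CD8 T cells, a process called cross-presentation. In mouse spleen they depend on the transcription factors Irf8 and Batf3, and they carry the chemokine receptor Xcr1 and the dead-cell receptor Clec9a on their surface. Nfil3 and Id2 are needed for their development, and Zeb2 opposes it. MHC genes are read from compact promoters in which a CCAAT sequence, the Y box, lies close to the start, and immediate early genes such as Fos and Dusp1 carry cAMP response elements.

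The levels below are log2 intensities, given in the order of WT replicates 1, 2 and 3 where 3 values stand together. A position is the percentile of the gene's mean over the 3 WT arrays among 19938 genes. An intensity also depends on the probes of the gene, so a position is a place among intensities and not a ratio of transcripts. A gene was counted as above background when each WT array read over that array's 95th percentile of 1231 olfactory, vomeronasal and taste receptor genes, which lay at 5.89, 5.88 and 5.90.

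All 4 defining cDC1 genes were high in every WT array. Irf8 read 12.53, 12.55 and 12.45 and stood at the 99.7th percentile. Clec9a read 11.92, 11.86 and 11.95 (99.2nd percentile), and Xcr1 read 11.64, 11.48 and 11.61 (98.8th percentile). Batf3, the partner of Irf8 on DNA, read 10.04, 10.23 and 10.41 (94.9th percentile). The label of these samples thus matched its markers in all 3 arrays.

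The promoters below belong to genes whose levels carry the profile: the lineage factor Irf8, the MHC class II chains H2-Eb1 and H2-Aa, the MHC class I light chain B2m, and the immediate early genes Dusp1 and Fos. Each run holds the 250 bases before the annotated start, from RefSeq on build GRCm38.p6, written 5′ to 3′ on the strand of the gene. Capitals mark matches to 4 motifs, each searched on either strand, so that a match on the other strand appears as its reverse complement. The Y box was searched as CCAAT. The part of the cAMP response element used was TGACGT, which can overlap itself on both strands. The interferon-stimulated response element was searched as GAAANNGAAA, with any bases at its centre. The TATA box was searched as TATAAA, and matches to different motifs do not overlap in these promoters. Irf8 lies on the plus strand (chr8:120736108-120736357), H2-Eb1 on the plus strand (chr17:34305617-34305866) and H2-Aa on the minus strand (chr17:34287824-34288073). B2m lies on the plus strand (chr2:122147437-122147686), Dusp1 on the minus strand (chr17:26508473-26508722) and Fos on the plus strand (chr12:85473640-85473889).
Irf8: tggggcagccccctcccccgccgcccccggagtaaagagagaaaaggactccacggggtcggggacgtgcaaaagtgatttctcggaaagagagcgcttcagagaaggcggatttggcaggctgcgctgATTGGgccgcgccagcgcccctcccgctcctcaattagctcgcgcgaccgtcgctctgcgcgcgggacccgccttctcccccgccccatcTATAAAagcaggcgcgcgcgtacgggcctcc
H2-Eb1: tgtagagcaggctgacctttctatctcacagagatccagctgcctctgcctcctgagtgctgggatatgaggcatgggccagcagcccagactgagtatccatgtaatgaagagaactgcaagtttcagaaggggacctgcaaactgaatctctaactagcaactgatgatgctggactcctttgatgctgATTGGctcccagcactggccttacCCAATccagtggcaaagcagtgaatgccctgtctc
H2-Aa: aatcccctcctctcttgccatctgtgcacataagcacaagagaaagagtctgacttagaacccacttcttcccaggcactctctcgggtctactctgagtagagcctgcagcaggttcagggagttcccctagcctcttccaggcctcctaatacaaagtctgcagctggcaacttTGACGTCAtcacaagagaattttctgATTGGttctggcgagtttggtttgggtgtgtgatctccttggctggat
B2m: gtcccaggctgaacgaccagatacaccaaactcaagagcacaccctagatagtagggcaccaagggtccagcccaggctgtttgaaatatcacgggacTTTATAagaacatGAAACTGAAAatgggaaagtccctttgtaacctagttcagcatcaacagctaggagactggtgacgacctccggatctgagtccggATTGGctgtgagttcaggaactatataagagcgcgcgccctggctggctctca
Dusp1: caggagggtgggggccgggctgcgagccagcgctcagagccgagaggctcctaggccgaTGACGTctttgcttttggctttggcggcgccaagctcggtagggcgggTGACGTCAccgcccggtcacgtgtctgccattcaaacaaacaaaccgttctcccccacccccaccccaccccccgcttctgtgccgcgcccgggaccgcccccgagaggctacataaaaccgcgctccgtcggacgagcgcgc
Fos: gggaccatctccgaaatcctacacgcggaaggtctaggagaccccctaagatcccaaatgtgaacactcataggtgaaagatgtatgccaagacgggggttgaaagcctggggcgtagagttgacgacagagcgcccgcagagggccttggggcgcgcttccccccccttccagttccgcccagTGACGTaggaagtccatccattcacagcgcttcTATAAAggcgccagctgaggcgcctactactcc

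The Y box letters lay 59 to 55 and 35 to 31 bases before the start in H2-Eb1, 48 to 44 in H2-Aa and 53 to 49 in B2m. Irf8 held them farther away, 121 to 117 bases before the start, and held TATAAA at 31 to 26. Dusp1 held TGACGT at 191 to 186 and in the overlapping pair of strands at 143 to 136, and Fos held it at 66 to 61. H2-Aa also held that pair, at 74 to 67 bases. The CCAAT letters occurred in 7 of 10 MHC class II genes and 9 of 16 MHC class I genes with a window, against 38.8% of the 15614 genes of the array with such a window. TGACGT occurred in 6 of 21 immediate early and stress genes and in 34 of 165 of the 200 genes with the highest WT means, against 8.95% of all such genes. GAAANNGAAA occurred in 11 of 20 interferon-stimulated genes, against 3.4% of all such genes, and TATAAA in 12.51% of them. A match is a description of these letters and not a binding site.

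The WT arrays were alike, with correlations over all genes of 0.994 to 0.997, and 185 to 187 of the 200 highest genes of an array were shared by any pair. Replicate 1 nevertheless stood apart. In it, 37 genes were over 2-fold higher and 25 over 2-fold lower than in both other WT arrays, against 3 and 5 for replicate 2 and 1 and 2 for replicate 3. B cell genes were high and heat shock genes low in replicate 1, and means without it are given for the genes it moved most. Among the mutant arrays, Zeb2 KO replicate 3 had the lowest correlations with its group (down to 0.986, against up to 0.996 between the other Zeb2 KO arrays). The targeted genes read as labelled for Nfil3 (6.20 and 7.09 in Nfil3 Zeb2 DKO, against 9.98, 10.77 and 10.68 in WT) and for Id2 (5.01 and 4.98 in Zeb2 Id2 DKO, against 10.15, 10.32 and 10.43 in WT). Zeb2 read 6.10, 6.27 and 5.40 in Zeb2 KO arrays, against 5.93 to 6.30 in WT arrays, next to the background level in both, so it does not check the labels.

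Of the 19938 genes, 12014 were above background in all 3 WT arrays. The mean level was under 6 for 8012 genes, between 6 and 8 for 6438, between 8 and 10 for 4213, between 10 and 12 for 1138 and over 12 for 137. The plot of levels over all genes shows the sensory receptor genes at the low end and the 4 cDC1 markers in the upper tail.

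**Figure D1:**
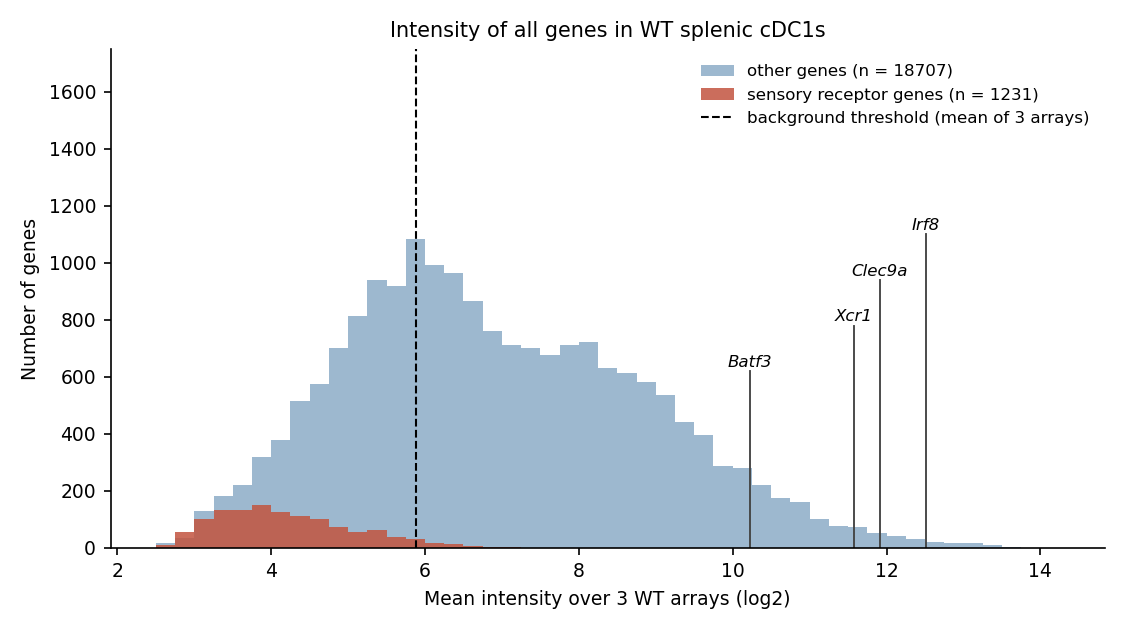
Mean log2 intensity over the 3 WT arrays (horizontal axis) against the number of genes (vertical axis), with 1231 sensory receptor genes and all other genes drawn over each other and the mean background threshold as a dashed line. Batf3 (10.23), Xcr1 (11.57), Clec9a (11.91) and Irf8 (12.51) lie in the upper tail, above nearly all other genes.

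The genes with the highest intensity joined housekeeping functions to antigen presentation. After ribosomal proteins, predicted genes and small RNAs were set aside, Eef1a1, a translation elongation factor, read 13.94, 13.94 and 13.97, and cytoskeletal Actb read 13.65, 13.69 and 13.63. Cst3, the cysteine protease inhibitor cystatin C, read 13.48, 13.44 and 13.50. These 3 genes varied by under 0.1 over the WT arrays. The MHC class II genes H2-Eb1, H2-Ab1, Cd74 and H2-Aa were all among the 30 highest such genes, as were the lysosomal genes Psap, Laptm5, Naaa, Ppt1 and Plbd1. Psap, the precursor of the saposins that lysosomes use to digest lipids, read 13.43, 13.46 and 13.39. Wdfy4, which cross-presentation by cDC1s requires, read 12.97, 12.82 and 12.87 with the probe set used.

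Other genes among these 30 were the leukocyte cytoskeleton and granule genes Tmsb10, Lcp1, Lsp1, Plek and Srgn, the surface protein gene Ly6e, the growth-associated Tpt1, the chaperone gene Hspa8, the ubiquitin-conjugating enzyme gene Ube2d3 and the chemokine receptor gene Cxcr4. Cxcr4 read 12.52, 12.69 and 12.62. The immediate early genes Dusp1, Fosb and Nr4a1 belonged to the same 30. Dusp1, a phosphatase that inactivates MAP kinases, read 13.27, 13.50 and 13.54 and was lowest in replicate 1. For 8 of the 30 genes there was more than 1 probe set, and they disagreed most for Baiap2l1 (WT means of 13.05 for the set used and 4.71 for the lowest), Gas5 (12.69 and 6.50) and Taf1d (12.86 and 7.38). The rank of these 3 genes therefore depends on the probe set. So does that of Ube2d3 (12.79 and 11.23) and Wdfy4 (12.89 and 11.86), and by less that of Tpt1 and Hspa8.

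**Figure D2:**
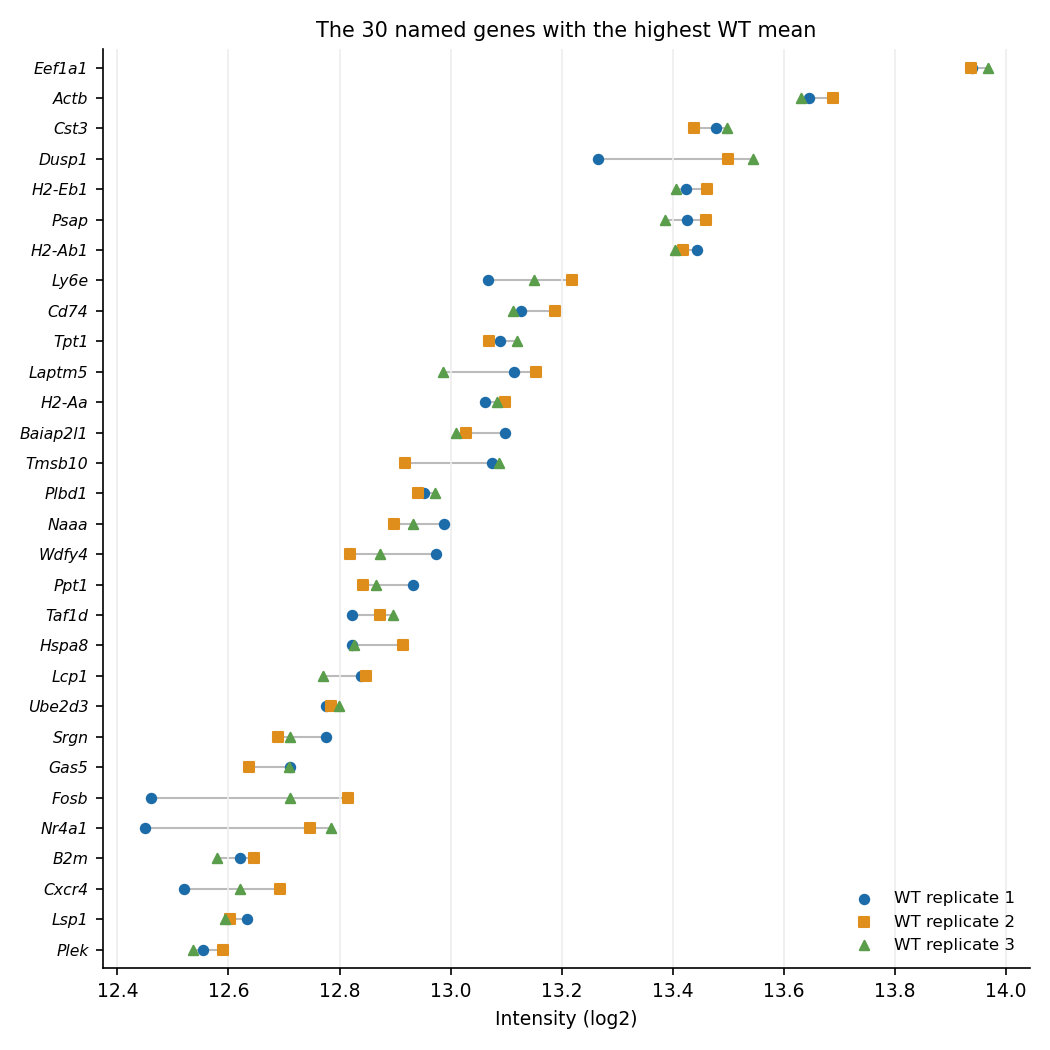
Log2 intensity (horizontal axis, starting at 12.4) of the 30 genes with the highest WT mean, after ribosomal proteins, predicted genes and small RNAs were set aside, with 1 point per WT array. Most genes vary by under 0.2 over the arrays, and Dusp1, Fosb and Nr4a1 are lowest in replicate 1.

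Among the 200 genes with the highest WT means, 41 were ribosomal proteins, of 65 measured. Actin cytoskeleton genes gave 12, heat shock proteins 7, and translation factors, proteasome subunits and respiratory chain or ATP synthase subunits 5 each. The MHC class II list placed 7 of its 14 measured members there and the cDC1 list 8 of 39. The immediate early and stress list gave 7 of 25, the MHC class I list 5 of 22, the lysosome list 6 of 37 and the transcription factor list 8 of 112. The lists of neutrophils, T cells, B cells, NK cells, platelets, erythroid, mast, stromal and liver cells had no member in the 200, and none was in the highest 10% of all genes. These counts are to be read against the 200 being 1% of all genes, so that a small list would often hold none. The pattern receptor, cytokine, interferon-stimulated, plasmacytoid dendritic cell and red pulp macrophage lists had no member in the 200 either.

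All 39 measured genes of the cDC1 list were above background, with a median at the 97.3rd percentile, against 50.0 over all genes. The lists were chosen with earlier results of these data known. Positions of lists, here and below, are therefore descriptions and no independent support. The list held 34 genes in the highest 10% and 8 in the highest 1%. Naaa, a lysosomal acid amidase, led it with 12.99, 12.90 and 12.93, followed by Wdfy4, with the probe set used, and by Ppt1, a lysosomal thioesterase. Cd24a, a surface glycoprotein used to sort these cells, read 12.29, 12.07 and 12.14, and Itgax, which encodes CD11c, read 12.09, 12.08 and 11.95. Cadm1, an adhesion molecule, read 11.26, 11.21 and 11.25. Cd8a, the surface chain found on splenic cDC1s, read 10.56, 10.86 and 10.89, and Itgae, which encodes CD103, read 10.52, 10.11 and 9.97.

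The lower members of the cDC1 list were Cd207, the C-type lectin langerin, with a WT mean of 8.04, Zbtb46 with 7.47 and Fkbp1b with 7.01. Zbtb46, a zinc finger factor of conventional dendritic cells, read 8.19, 6.42 and 7.79, a wider spread than any other member named here, so its position between the 48.6th and the 75.7th percentile of single arrays is poorly fixed. Cd8b1, the partner of Cd8a on CD8 T cells, read 6.93, 7.82 and 7.72, at the 65.4th percentile.

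MHC class II genes held the highest median of the 30 lists, at the 98.9th percentile, and all 14 measured members were above background. H2-Eb1 read 13.42, 13.46 and 13.41, H2-Ab1 read 13.44, 13.42 and 13.40, and H2-Aa read 13.06, 13.10 and 13.08. These encode chains of the peptide-binding molecules, and their SDs over the 3 arrays were 0.029, 0.020 and 0.018. Cd74, the invariant chain that blocks the groove until the endosome, read 13.13, 13.19 and 13.11. H2-DMa, which edits bound peptides, read 12.44, 12.49 and 12.50.

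H2-Oa and H2-Ob, which encode the inhibitor of that editing, read 11.73, 11.91 and 11.81 and 11.54, 11.52 and 11.59. Ciita, the coactivator that switches the class II genes on, read 10.52, 10.53 and 10.53 and had one of the smallest spreads of the list. H2-Eb2 (8.07, 8.35 and 8.51) and the ubiquitin ligases Marchf1 (WT mean 7.76), which removes class II from the surface, and Marchf8 (WT mean 6.06) were the lowest members.

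In the MHC class I list, 21 of 22 measured members were above background, with a median at the 96.4th percentile. B2m, the light chain, read 12.62, 12.65 and 12.58. The immunoproteasome subunit gene Psmb9 read 12.42, 12.45 and 12.66, and Tap1, a subunit of the peptide transporter into the endoplasmic reticulum, read 12.30, 12.19 and 12.27. Nlrc5, the class I counterpart of Ciita, read 12.12, 11.69 and 11.87 with the probe set used, and its 19 probe sets spanned WT means of 8.25 to 11.89. The partner transporter subunit Tap2 read 10.83, 10.85 and 10.92 and the loading factor Tapbp 10.40, 10.36 and 10.37. The non-classical genes spread widely. H2-M3, which presents formylated peptides, had a mean of 9.21, Cd1d1, which presents lipids, 8.49, and Mr1, which presents vitamin metabolites, 6.42, while H2-Q10 lay below background at 5.48.

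Endosomal processing genes were high as a group, with 34 of 37 lysosome genes above background and a median at the 94.0th percentile. Ifi30, a thiol reductase that unfolds antigens, read 11.65, 12.01 and 11.92, and Ctss, the protease that trims the invariant chain, read 11.31, 11.13 and 11.41. Other cathepsins ranged widely, with WT means of 11.24 for Ctsz and 10.87 for Ctsb, 6.86 for Ctsd and 6.65 for Ctsl, while Ctsk and Ctsg were below background.

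In the cross-presentation and phagosome list, 35 of 39 members were above background, with a median at the 89.1st percentile. Cyba, the membrane anchor of the phagocyte NADPH oxidase, read 12.22, 12.33 and 12.36, whereas its catalytic partner Cybb read 9.03, 8.63 and 8.72. The small GTPase genes Rab7b (11.48, 11.27 and 11.44) and Rab43 (11.02 and 11.09 in replicates 2 and 3, with a mean of 11.04) stood at the 98.6th and 97.9th percentiles. Rab43 is known for cross-presentation in cDC1s. Sec22b, a vesicle fusion protein, read 8.35, 8.36 and 8.60, at the 78.5th percentile, and Dnase1l3, a secreted nuclease that degrades DNA of dead cells, read 11.38, 11.52 and 11.50. Rab3b, Rab3c and Atp6v0d2 were below background in all 3 arrays, at means of 4.34, 4.22 and 3.47.

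Receptor genes ranged from among the highest levels to below background. Counts above background, here and in the lists that follow, are to be read against 12014 of all 19938 genes. The C-type lectin and chemokine receptor lists came close to that share. Of the 36 Toll-like and other pattern receptor genes, 30 were above background. Tlr3, the endosomal receptor for double-stranded RNA, read 11.40, 11.31 and 11.21. Tlr9, which senses CpG DNA, read 9.91, 10.27 and 9.78, Tlr13, which senses bacterial ribosomal RNA, 9.61, 9.66 and 9.51, and Tlr12, the profilin receptor, 8.48, 8.61 and 8.74. In contrast, Tlr7, which senses single-stranded RNA, read 5.40, 4.66 and 4.61, Tlr4, the lipopolysaccharide receptor, 4.93, 4.73 and 4.73, and Tlr8 3.66, 3.83 and 3.92. All 3 of these genes were below background in every WT array.

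Unc93b1, the chaperone of the endosomal receptors, read 10.87, 10.96 and 10.92, and the shared adaptor gene Myd88 read 10.20, 10.18 and 10.31. Tlr2, the receptor for bacterial lipopeptides, read 8.32, 8.44 and 8.46. Its partners Tlr1 and Tlr6 had means of 7.14 and 6.54. Among DNA sensors, Aim2 read 10.81, 10.73 and 10.79 and the adaptor gene Sting1 9.46, 9.24 and 9.55, while Cgas, the enzyme that makes the ligand of Sting1, was below background at 5.13, 5.50 and 5.58. The RNA helicase genes Ifih1 and Ddx58 had means of 9.05 and 6.61, and Ddx58 spread over 7.24, 6.09 and 6.51.

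Of 40 C-type lectin and scavenger receptor genes, 23 were above background and 15 were below it in all 3 arrays, with a median at the 48.3rd percentile. Clec9a, which binds actin exposed on dead cells, was the highest. Havcr2, which encodes TIM-3, read 11.05, 11.03 and 11.09, and Cd36, a scavenger receptor, 10.28, 10.47 and 10.36. Clec12a, a lectin that senses dead cells, read 10.14, 10.36 and 10.51, and Ly75, which encodes the uptake receptor DEC-205, 9.95, 9.75 and 9.79. The receptors Clec4a4, Msr1 and Clec10a lay below background, at means of 3.68, 3.92 and 4.92; Clec4a4 encodes DCIR2, a marker of splenic cDC2s.

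Among 33 chemokine and lipid receptor genes, 20 were above background. Cxcr4, the receptor for Cxcl12, was the highest, followed by Xcr1. P2ry14, a receptor for UDP sugars, read 11.37, 11.25 and 11.19, and Ccr7, which guides dendritic cells into T cell zones, read 11.34, 11.18 and 11.28. The difference between their means was smaller than the SD of either. Cxcr3 followed with 10.42, 10.56 and 10.70 and Gpr183, an oxysterol receptor, with 9.58, 9.57 and 9.85. Ccr2 (8.17, 7.48 and 7.90) and Cx3cr1 (6.90, 7.41 and 7.45), receptors of monocytes, stood at the 70.3rd and 62.0th percentiles. Ccr6, Ccr1 and Cxcr2 were below background in all arrays.

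Cytokine receptor genes were above background in 36 of 42 cases. Ifngr1, a chain of the interferon gamma receptor, read 12.05, 12.02 and 11.98. Kit, the receptor for stem cell factor, read 11.69, 11.63 and 11.55, and Flt3, whose ligand drives dendritic cell development, read 11.58, 11.55 and 11.52. The receptor chains for GM-CSF, Csf2ra (10.30, 10.61 and 10.59) and Csf2rb (10.31, 10.55 and 10.44), stood at the 96.1st and 95.9th percentiles. Csf1r, the macrophage growth factor receptor, read 6.92, 7.20 and 7.15, and Il2ra was below background in every array.

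Among 37 costimulatory and coinhibitory genes, 31 were above background. Cd86, a ligand of CD28, read 12.03, 11.90 and 11.93, and its relative Cd80 read 10.35, 10.59 and 10.44. Cd40, the receptor for T cell help, read 9.31, 9.23 and 9.58, and Cd83, a maturation marker, 9.36, 9.43 and 9.75. The inhibitory ligand gene Cd274 (PD-L1) read 8.74, 8.47 and 8.82, and Pdcd1lg2 (PD-L2) 6.36, 6.39 and 6.40. Genes of inhibitory receptors were also present, with Btla at 10.74, 10.65 and 10.68 and Ctla4 at 9.35, 9.95 and 9.72. Tnfsf4 (OX40 ligand) was below background in all 3 arrays, and Cd70 exceeded it in 2 of the 3, at 5.99, 5.89 and 5.84.

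The cytokine list was split, with 30 of 44 members above background and 13 below it in all arrays. Il12b, the shared p40 chain of interleukins IL-12 and IL-23, read 11.05, 11.01 and 11.25, whereas Il12a, the chain that completes IL-12, read 5.31, 5.33 and 5.21, below background. Il1b read 11.12, 11.34 and 11.12, Cxcl16 read 11.04, 11.16 and 11.16, and Cxcl9, a ligand of Cxcr3, read 10.68, 10.74 and 11.07. Tnf read 9.90, 9.77 and 9.37. Il6, Il10 and Ifnb1 were below background in every WT array, with means of 5.55, 5.26 and 5.47.

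Of 112 dendritic cell and haematopoietic transcription factor genes, 102 were above background, with a median at the 83.1st percentile. Fosb (12.46, 12.82 and 12.71) and Nr4a1 (12.45, 12.75 and 12.78), both immediate early factors, had the highest means. Irf8 followed at 12.51, a difference smaller than the SD of Fosb or Nr4a1. Rel, a subunit of NF-kappaB, read 12.45, 12.49 and 12.44. Jun (11.88, 12.58 and 12.69) and Atf3 (11.70, 12.37 and 12.48) were both lowest in replicate 1, and their means were 12.64 and 12.42 without it, beside 12.38 and 12.18 with it.

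Among lineage factors, Notch2, a receptor that acts in the nucleus, read 11.66, 11.68 and 11.56, Spi1 (PU.1) 11.07, 11.11 and 11.19, and Mycl, a factor that supports dendritic cell fitness, 10.51, 10.59 and 10.61. Nfil3 and Id2 stood at the 96.0th and 95.3rd percentiles. Zeb2 stood at the 41.7th percentile, next to the background threshold. Irf4, a factor of cDC2s, read 8.10, 7.48 and 7.44, and Irf5 read 10.95, 10.94 and 10.90. Tcf4, the E protein of plasmacytoid dendritic cells, read 8.68, 8.76 and 8.52, and Klf4 8.56, 9.26 and 9.15. Gata3, Eomes, Gata1 and Bhlhe41, factors of other lineages, were below background in every WT array, at means of 5.28, 5.49, 5.78 and 3.94.

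**Figure D3:**
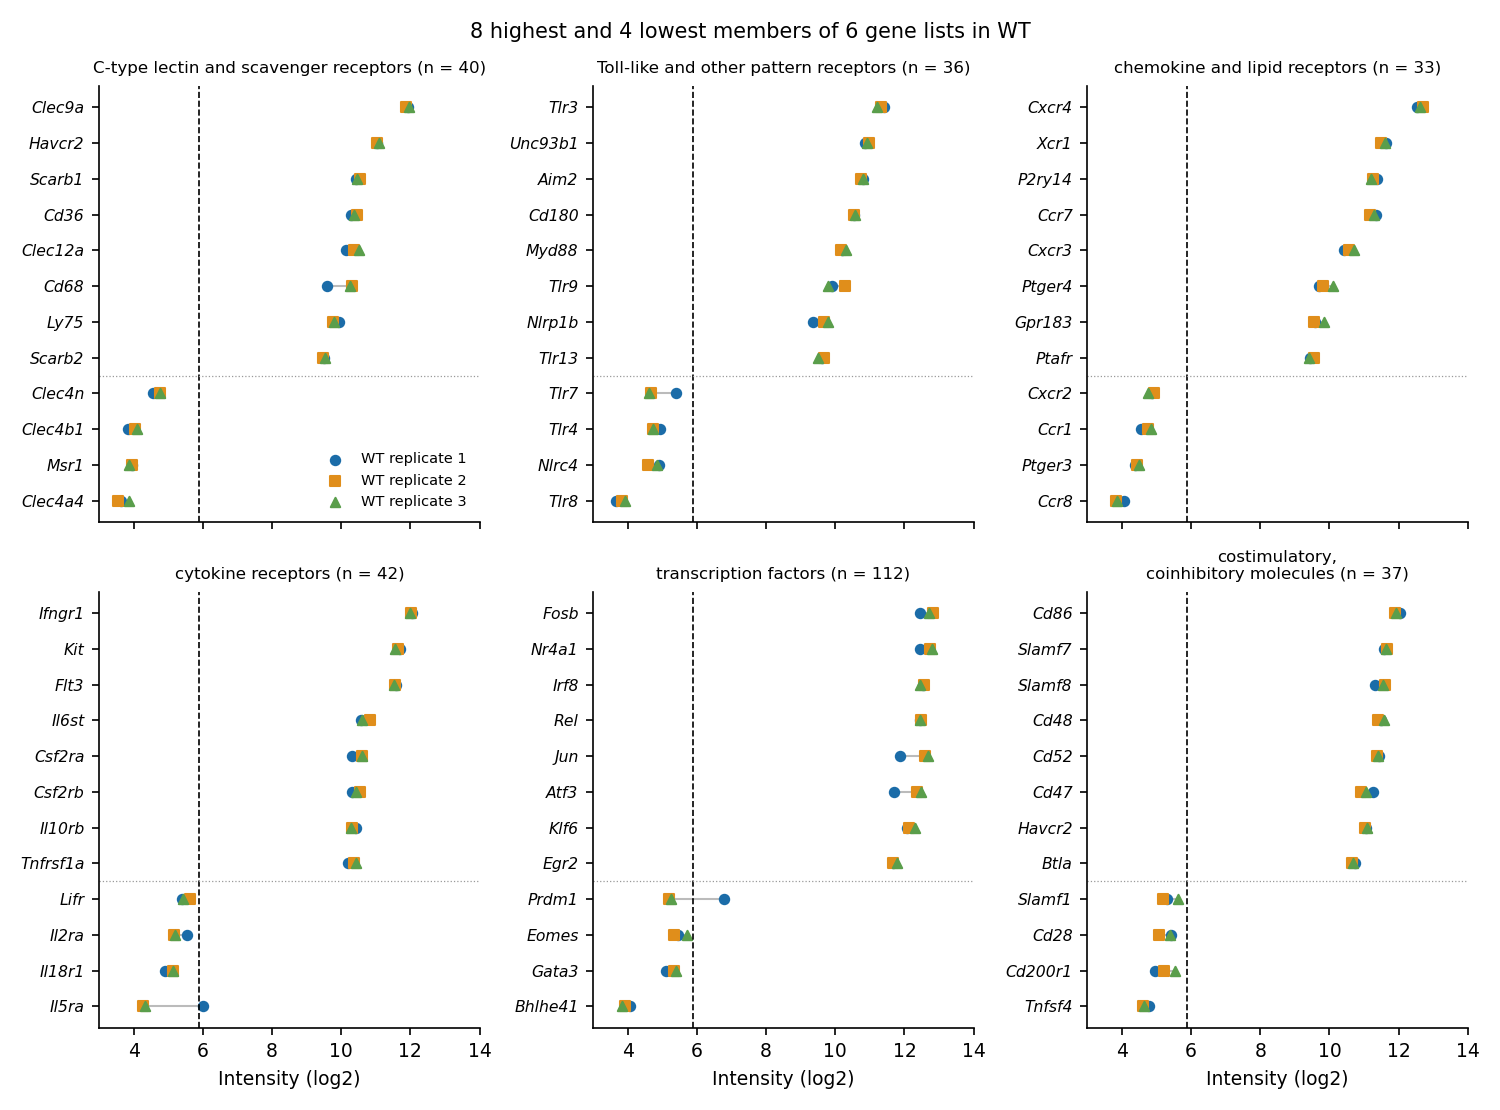
Log2 intensity (horizontal axes) of the 8 highest and 4 lowest members of 6 gene lists, with 1 point per WT array and the mean background threshold as a dashed line. The highest members lie at about the same level in the 3 arrays, the lowest are under the threshold except in replicate 1 for Prdm1 (6.77) and Il5ra (6.01), and Tlr3 (11.31) is high while Tlr7, Tlr4 and Tlr8 are under the threshold.

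All 25 measured immediate early and stress genes were above background, with a median at the 95.1st percentile. Fos read 11.58, 11.66 and 11.80, Egr1 9.62, 9.93 and 9.77, and Hspa1a, an inducible heat shock protein, 11.01, 12.39 and 12.21. Ier3 (mean 6.84) and Fosl1 (mean 6.34) were the lowest. Of the 25 genes, 22 were lowest in replicate 1, where the list averaged 10.10, against 10.48 and 10.47 in replicates 2 and 3. Of all 19938 genes, 7512 were lowest in replicate 1.

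All 39 measured cell cycle genes were above background, with a median at the 80.8th percentile. Pcna, the sliding clamp of DNA replication, read 11.73, 11.93 and 12.08, Ezh2 10.99, 11.19 and 11.31, and Mki67, a marker of cycling cells, 9.97, 10.39 and 10.19. In 35 of the 39 genes replicate 1 was lowest, against 7512 of all 19938 genes. Of 27 interferon-stimulated genes, 24 were above background, with a median at the 70.8th percentile. Their levels ran from 11.50 for Trim30a and 10.83 for Ifitm3 to 5.29 for Ifit1 and 4.54 for Ddx60, both below background.

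Genes of other cell types lay lower, although most lists held members above background, as did 12014 of all 19938 genes. The counts below are to be read against that share, which some of them, such as that of the neutrophil list, came close to. Of 25 cDC2 genes, 18 were above background. Tbc1d8 read 12.11, 12.05 and 12.02 and Rtn1 9.48, 9.78 and 9.65, whereas Sirpa, the surface marker that separates cDC2s, read 7.09, 7.44 and 7.54. Itgam, which encodes CD11b, read 6.12, 6.12 and 6.15, and Mgl2, Clec10a, Clec4a2, Clec4a1 and Clec4a4 were below background. Of 25 plasmacytoid dendritic cell genes, 18 were above background. Bst2, which interferon also induces, read 10.45, 10.61 and 10.78, and Siglech, the defining surface gene, 5.97, 6.56 and 6.42.

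In the monocyte list 13 of 19 genes were above background, led by Nr4a1 and by Plac8 (11.97, 11.77 and 11.84), and Lyz2, lysozyme, read 9.83, 9.47 and 9.46. Fcgr1, Fn1, F13a1, Chil3 and Vcan were below background. In the red pulp macrophage list 10 of 20 genes were above background. Treml4, a receptor also carried by splenic dendritic cells, read 11.62, 11.74 and 11.49, while Cd163, Cd5l and Slc40a1, the iron exporter ferroportin, were below background.

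Neutrophil genes were above background in 11 of 18 cases, with Ngp, a granule protein, at 8.57, 8.37 and 8.71 and Ly6g at 4.96, 4.86 and 4.49, below background. T cell genes were above background in 14 of 19 cases, with Cd3e at 7.44, 7.65 and 7.55, and NK cell genes in 8 of 18, with Ncr1 below background in every array. Erythroid genes were above background in 11 of 14 cases, and Slc4a1, the band 3 anion exchanger, read 9.52, 9.31 and 8.05. The mast cell, basophil and eosinophil list had 6 of 17 genes above background, the platelet list 6 of 11 and the endothelial and stromal list 10 of 21. The platelet chemokine genes Pf4 and Ppbp lay at means of 4.96 and 4.79. Hepatocyte genes gave 1 of 14 above background, Apoa2 at 6.57, and Alb read 5.00, 4.89 and 4.85. The part of other cells in these levels was not tested.

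**Figure D4:**
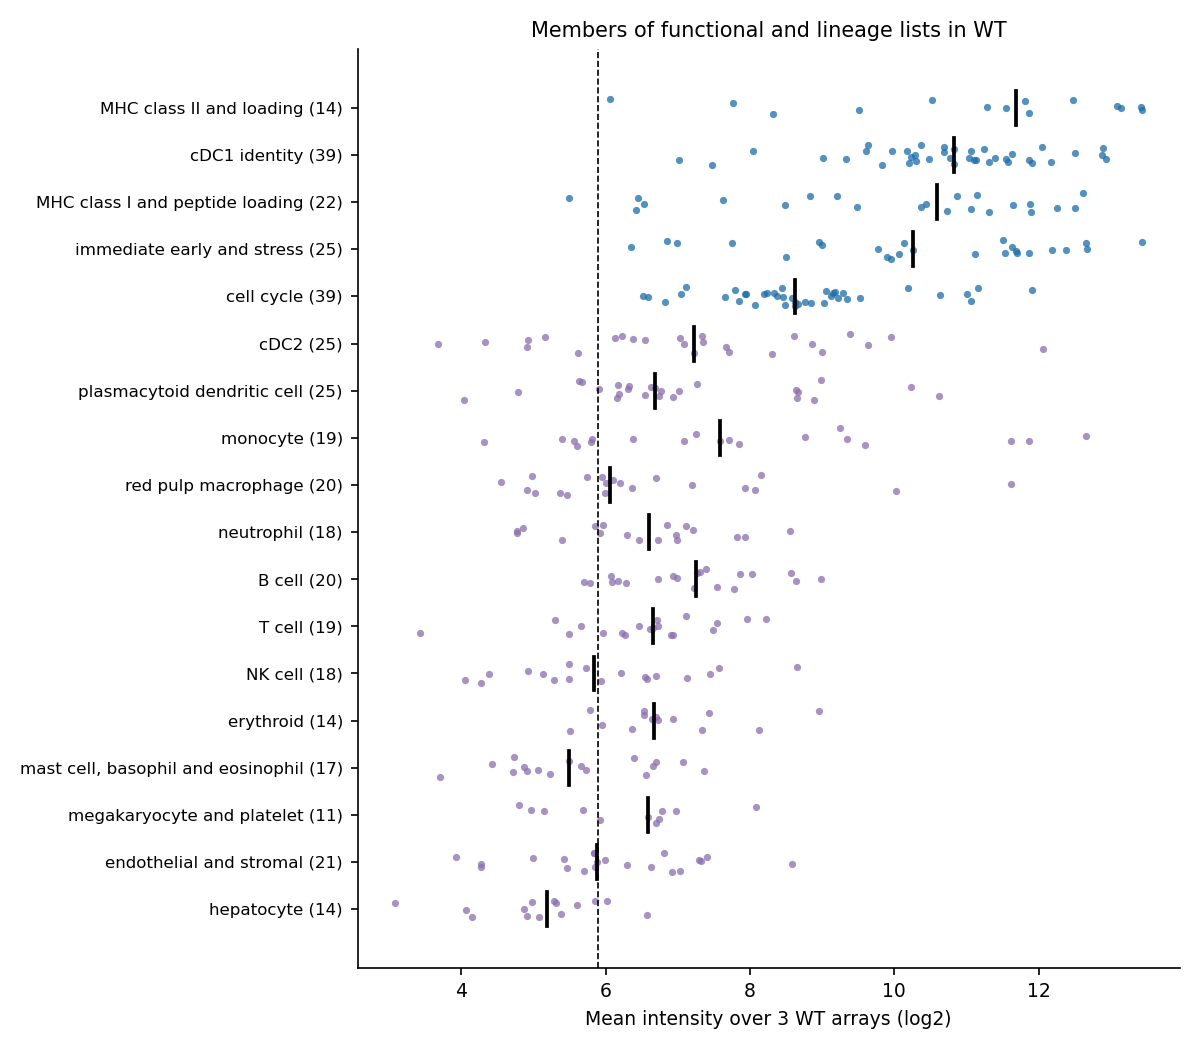
Mean log2 intensity over the 3 WT arrays (horizontal axis) of each measured member of 18 gene lists, with 1 point per gene, a bar at the median of the list and the mean background threshold as a dashed line. The MHC class II, MHC class I, cDC1 identity and immediate early lists have medians above 10, and lists of other cell types have medians between 5.18 (hepatocyte) and 7.59 (monocyte).

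Of the 30 lists, the B cell list had the largest median difference between replicate 1 and the other WT arrays, and the cell cycle and immediate early lists, described above, moved the other way. Of the 20 measured B cell genes, 16 were highest in replicate 1, 12 by over 2-fold against both others. The median difference between replicate 1 and the mean of replicates 2 and 3 was 1.55. Of all 19938 genes, 6641 were highest in replicate 1, 37 by over 2-fold against both others. The mean of the list was 6.35 to 7.30 in Zeb2 KO arrays, 6.62 to 6.69 in Nfil3 Zeb2 DKO arrays and 6.86 to 6.90 in Zeb2 Id2 DKO arrays, against 8.0 in WT replicate 1 and 6.73 and 6.77 in the other WT arrays.

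Cd79a, a chain of the B cell receptor complex, read 8.71, 6.36 and 6.61, and its mean was 6.48 without replicate 1 and 7.23 with it. Pax5, the B cell identity factor, read 9.05, 6.72 and 6.87, and its partner Ebf1 7.72, 5.36 and 5.75, with means without replicate 1 of 6.80 and 5.56. Fcmr, the IgM Fc receptor, read 9.71, 6.69 and 7.19, with a mean of 6.94 without replicate 1 and 7.86 with it. The plasma cell genes Mzb1 (8.51, 6.31 and 6.51) and Jchain (10.27, 8.13 and 8.22) ran the same way, and their means without replicate 1 were 6.41 and 8.17. Ms4a1, which encodes CD20, did not, with 8.09 in replicate 1, 9.79 in replicate 2 and 7.85 in replicate 3. Vpreb3 was below background in all 3 arrays, and Ebf1, Spib, Cxcr5 and Cr2 exceeded it in 1 array each. The part of B cells in the values of replicate 1 was not tested.

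The widest spread of any named gene was that of Kcnma1, a calcium-gated potassium channel gene, with 11.56 in replicate 1, 4.46 in replicate 2 and 4.10 in replicate 3. Its other probe set read 4.62, 4.51 and 4.43, so the 2 probe sets disagreed in replicate 1 alone among the WT arrays. Its mean was 4.28 without replicate 1 and 6.71 with it. Genes that were low in replicate 1 included the chaperone genes Hspb1 (6.78, 9.52 and 8.92), Hspa1l (6.33, 8.84 and 8.15) and Dnajb1 (9.99, 11.86 and 11.49), the co-chaperone gene Bag3 (6.65, 8.94 and 7.89) and the stress-induced gene Phlda1 (6.60, 9.16 and 8.41). Without replicate 1 the means were 9.22 for Hspb1, 8.50 for Hspa1l, 11.67 for Dnajb1, 8.41 for Bag3 and 8.79 for Phlda1. Replicates 2 and 3 differed from each other by over 2-fold in 13 genes, and replicate 1 from them in 99 and 77.

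**Figure D5:**
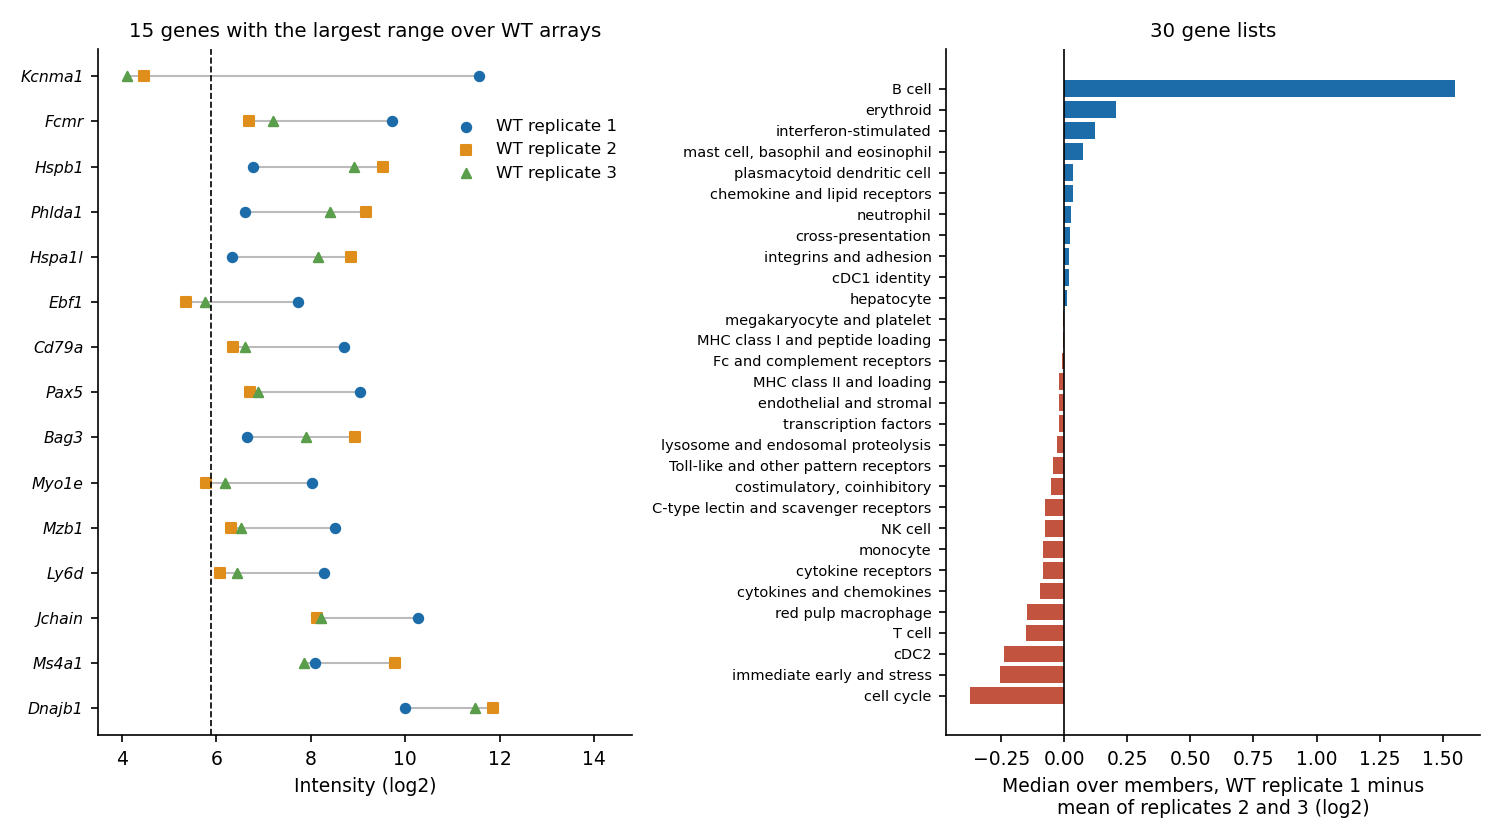
Left, log2 intensity (horizontal axis) in each WT array of the 15 genes with the largest range, with the mean background threshold as a dashed line. Right, the median difference (log2) over the members of each of 30 gene lists between WT replicate 1 and the mean of replicates 2 and 3: the B cell list stands apart at 1.55, and the cell cycle list is lowest at -0.37.

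The other genotypes served to ask which levels of the WT profile differ when Zeb2 is deleted, alone or together with Nfil3 or Id2. No array had Nfil3 or Id2 deleted alone, so a double knockout against WT cannot separate either gene from Zeb2. The 3 comparisons share the WT arrays, and each was tested with limma over all genes at a Benjamini-Hochberg adjusted p under 0.05. None of the 200 genes with the highest WT means was called in any of them. In Zeb2 KO, 0 of the 200 were called by limma (13 at an unadjusted p under 0.05, smallest adjusted p = 0.348), where 0.0201% of all genes were called. In Nfil3 Zeb2 DKO, 0 were called (5 unadjusted, smallest adjusted p = 0.522) against 0.00502% of all genes. In Zeb2 Id2 DKO, 0 were called (16 unadjusted, smallest adjusted p = 0.067) against 1.43% of all genes. Over all 19938 genes, 1474, 829 and 2028 had an unadjusted p under 0.05 by limma in these 3 comparisons, in the same order. The median log2 difference of the 200 genes from WT was -0.04 for Zeb2 KO (-0.0030 over all genes), -0.0036 for Nfil3 Zeb2 DKO (0.01 over all genes) and -0.03 for Zeb2 Id2 DKO (-0.01 over all genes). In the same order, 136, 105 and 124 of the 200 were negative, against 10170, 9129 and 10643 of all genes. The 200 were chosen by WT level and compared with the same WT arrays, so small negative differences were favoured beforehand. At the shares called over all genes, 200 genes would hold few calls or none, so the counts of 0 show little.

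Of the 200 highest genes in WT, the Zeb2 KO arrays shared 187, the Nfil3 Zeb2 DKO arrays 191 and the Zeb2 Id2 DKO arrays 181. Single WT arrays shared 185 to 187 with each other. Of the 30 highest named genes, 25, 26 and 26 were shared, and Cxcr4, Fosb, Nr4a1 and Plek were missing in each mutant. These 4 stood near the end of the 30, at WT ranks 54, 49, 50 and 56 over all genes. Because the 30 were chosen by WT level and the comparisons share the WT arrays, such a drop was favoured beforehand. It does not by itself show a loss. Cxcr4 read 12.17, 12.24 and 12.45 in Zeb2 KO, against 12.52, 12.69 and 12.62 in WT, groups that do not overlap, with an adjusted p of 0.366 by limma. Zeb2 KO replicate 3 decided this call: without it Cxcr4 was called, as the only gene of the 200, among 165 called genes in all.

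Of the 4 markers, none was called by limma in any comparison, and none had an unadjusted p under 0.05. Irf8 read 12.70, 12.58 and 12.71 in Zeb2 KO, 12.42 and 12.49 in Nfil3 Zeb2 DKO, plus 12.59 and 12.63 in Zeb2 Id2 DKO, against 12.53, 12.55 and 12.45 in WT. The 95% confidence interval of the difference ran from -0.08 to 0.28 in Zeb2 Id2 DKO. Xcr1 differed from WT by -0.16 in Zeb2 Id2 DKO (interval -0.41 to 0.10) and by 0.0012 in Nfil3 Zeb2 DKO (interval -0.26 to 0.26). A p that misses the threshold does not show that the levels are equal, and differences within these intervals are possible.

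In Zeb2 KO 4 genes were called, of which 3 are members of the lists and Zfyve9, an endosomal adaptor gene that fell by 0.89, is named only for its call. Cd80 fell, one of the 0.015% of all genes called lower, with 9.64, 9.76 and 9.85 in Zeb2 KO against 10.35, 10.59 and 10.44 in WT (log2 difference -0.71, adjusted p = 0.0442 by limma). Rtn1 fell by 1.11 (adjusted p = 0.0255), and Ngp rose by 3.01 (adjusted p = 0.0255), with 12.18, 11.25 and 11.24 in Zeb2 KO against 8.57, 8.37 and 8.71 in WT. All 3 calls were lost with some array left out, at adjusted p-values of up to 0.228 for Cd80 and 0.181 for Rtn1 and Ngp. The same 3 genes were called in the same direction in Zeb2 Id2 DKO, a comparison that shares the WT arrays. The differences there were -0.54 for Cd80 (adjusted p = 0.0257 by limma), -0.98 for Rtn1 (0.00695) and 2.95 for Ngp (0.0048). Cd80 and Rtn1 lost these calls too with some arrays left out. All 18 neutrophil genes had positive differences in Zeb2 KO, against 9768 of all 19938 genes. Their median was 1.06, with a list mean of 7.54 to 8.42 against 6.38 to 6.54 in WT. All 18 were also positive in Nfil3 Zeb2 DKO, against 10809 of all genes, with a median of 0.36 and a list mean of 6.82 to 7.32. The part of neutrophils in these values was not tested. In Nfil3 Zeb2 DKO the 1 gene called was Nfil3 itself, with a fall of 3.84 (adjusted p = 0.000622 by limma). Il12b, which was called in Zeb2 Id2 DKO, read 9.83, 10.01 and 10.20 in Zeb2 KO against 11.05, 11.01 and 11.25 in WT, groups that do not overlap, and its adjusted p of 0.0508 by limma missed the threshold. Under the alternatives that p ran from 0.00976 to 0.362.

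In Zeb2 Id2 DKO, 7 of the 39 cDC1 genes were called, against 1.43% of all genes. The lists were chosen with earlier results of these data known, and this list holds the deleted gene. Counts of called members, here and below, are therefore descriptions and no independent support. Id2, the deleted gene, Apol7c, Cadm1, Fzd1 and Il12b fell (0.557% of all genes were called lower), and Fkbp1b and Septin3 rose. Apol7c, an apolipoprotein L gene, read 7.75 and 8.98 in Zeb2 Id2 DKO against 11.01, 11.30 and 11.10 in WT (log2 difference -2.77, adjusted p = 0.0016 by limma). Cadm1 read 10.45 and 10.28, against 11.26, 11.21 and 11.25 in WT (-0.87, adjusted p = 0.00225). Il12b read 10.08 and 10.01, against 11.05, 11.01 and 11.25 in WT (-1.06, adjusted p = 0.0112). The count of 7 fell to 3 (Id2, Apol7c and Cadm1) without either Zeb2 Id2 DKO array and to 4 without WT replicate 3, and was 11 without Zeb2 KO replicate 3. For Il12b the adjusted p was up to 0.132 with an array left out.

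In the same comparison, 0 of 14 MHC class II genes were called by limma (2 at an unadjusted p under 0.05, smallest adjusted p = 0.127), and 1 of 22 MHC class I genes, Cd1d1, which read 7.84 and 7.80 against 8.47, 8.53 and 8.47 in WT (-0.67, adjusted p = 0.0215). No immediate early gene of 25 (5 unadjusted) and no cell cycle gene of 39 (5 unadjusted) was called there. The unadjusted counts are to be read against 2028 of all 19938 genes. The list median of the MHC class II genes differed from WT by 0.0007. Immediate early and stress genes were lower than in WT in 17 of 25 cases in Zeb2 Id2 DKO (median -0.11), against 10643 of all genes. They were lower in 23 of 25 cases in Zeb2 KO (median -0.25), against 10170 of all genes. In Nfil3 Zeb2 DKO, 23 of 25 were also lower (median -0.28), against 9129 of all genes. None was called in any comparison, and the cause was not tested.

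Interferon-stimulated and plasmacytoid dendritic cell genes were among those that rose, on lists that were also chosen with earlier results of these data known. Of 27 interferon-stimulated genes, 15 rose in Zeb2 Id2 DKO, against 0.878% of all genes called higher, and all 27 had positive differences, with a median of 0.98 beside -0.01 over all genes. Ifit3, an antiviral protein gene, read 8.26 and 8.97 in Zeb2 Id2 DKO against 6.40, 6.29 and 6.25 in WT (log2 difference 2.30, adjusted p = 0.000147 by limma). Irf7, the factor that amplifies interferon responses, read 11.36 and 11.77 against 10.33, 10.10 and 10.26 in WT (1.33, adjusted p = 0.0212). Of 25 plasmacytoid dendritic cell genes, 6 rose, among them Siglech, with 8.07 and 7.90 in Zeb2 Id2 DKO against 5.97, 6.56 and 6.42 in WT (1.67, adjusted p = 0.00164). Irf7 and Bst2 belong to both lists. Zeb2 Id2 DKO replicate 2 weighed on both counts: without it 9 interferon-stimulated genes and 1 plasmacytoid dendritic cell gene, Siglech, were called. The plasmacytoid dendritic cell count was 1 to 3 with any 1 of the WT, Zeb2 Id2 DKO or Nfil3 Zeb2 DKO arrays left out.

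In other lists the counts are to be read against 1.43% of all genes called in either direction, 0.878% called higher and 0.557% called lower. Of 42 cytokine receptor genes, 5 were called: Il13ra1 rose, and Il27ra, Csf2rb2, Il2rb and Il6st fell. Of 37 costimulatory and coinhibitory genes, 4 were called: Lgals9 (1.70, adjusted p = 0.0018 by limma) and Cd84 rose, and Icos and Cd80 fell. Of 39 cross-presentation and phagosome genes, Dnase1l3 and Rac2 fell. Without WT replicate 3, no cytokine receptor gene was called, and Cd80, Dnase1l3 and Rac2 lost their calls. Of the 33 chemokine and lipid receptor genes, 1 was called, Cxcr3, with 11.32 and 11.31 in Zeb2 Id2 DKO against 10.42, 10.56 and 10.70 in WT (0.75, adjusted p = 0.0157 by limma). Of 36 pattern receptor genes, 2 rose, the helicase gene Dhx58 and Tlr9. Tlr9 read 10.55 and 10.64 in Zeb2 Id2 DKO against 9.91, 10.27 and 9.78 in WT (0.61, adjusted p = 0.0461). Of 44 cytokine genes, 2 fell, Il12b and Ccl2, a monocyte attractant, which read 6.86 and 7.35 against 8.46, 8.89 and 8.56 in WT (-1.53, adjusted p = 0.00113). Of the 112 transcription factor genes, 8 were called: Id2 and Pparg fell, and Irf7, Stat2, Cebpa, Tsc22d3, Klf13 and Lyl1 rose. Of these, Id2 and Stat2 alone were called without WT replicate 2 or 3 or without either Zeb2 Id2 DKO array, and 21 genes of the list were called without Zeb2 KO replicate 3.

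Genes of other cell types also differed in Zeb2 Id2 DKO. Of 18 neutrophil genes 9 rose, with list means of 7.49 and 8.40 in Zeb2 Id2 DKO against 6.38 to 6.54 in WT. Without Zeb2 Id2 DKO replicate 2 the call of Ngp alone was kept, and 3 or 4 of the genes were called with 1 WT array left out. All 14 erythroid genes had positive differences, against 9295 of all 19938 genes. Their median was 0.76, with list means of 7.49 to 7.67 in Zeb2 Id2 DKO against 6.57 to 7.01 in WT. The carbonic anhydrase gene Car2 and the nuclear protein gene Hemgn were called, and neither was called without either Zeb2 Id2 DKO array. Of 19 T cell genes, Cd6 rose and Icos, Cd3d, Cd3g and Lat fell, and the list median was -0.32. An unadjusted p under 0.05 by limma was found for 14 of the 19, against 2028 of all 19938 genes. Cd6 and Icos were called with any array left out, and Cd3d, Cd3g and Lat were not. The part of neutrophils, erythroid cells and T cells in the Zeb2 Id2 DKO values was not tested.

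Apol7c, Cadm1, Ccl2, Ifit3 and Siglech were called with any array left out, with adjusted p-values of up to 0.0493 by limma. The calls of Cd1d1, Irf7, Cxcr3 and Tlr9 were lost with some arrays left out, at adjusted p-values of up to 0.207, 0.246, 0.154 and 0.365.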

How the data were processed

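Total RNA of sorted splenic cDC1s was measured on 10 Affymetrix arrays with 28853 probe sets. The deposited intensities are linear RMA values, normalized by the authors in Affymetrix Expression Console per the submitters' processing notes; versions and annotation are not given in the sources used here. Log2 of the intensities was taken. Of the probe sets, 21789 named 1 gene, 1621 several and 5443 none. Gene identifiers of 21698 sets matched the RefSeq table (GRCm38.p6), with 0 symbols changed. For 999 genes with several sets, the set of highest mean across the 10 arrays was kept, giving 19938 genes. No other filter was applied.

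WT levels, positions and lists are descriptions with no test. For comparisons, limma 3.58.1 in R 4.3.3 was fitted to all 10 arrays with a mean per genotype and no block (6 residual degrees of freedom, prior 4.47), with Benjamini-Hochberg adjustment over all genes in each of 3 comparisons with WT. Differences are mutant minus WT. The fit was tested on simulated data with known changes. The number of arrays limits precision: the median 95% confidence interval reached 0.22 to 0.24 log2 to either side.

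Of the names on 30 lists, 69 matched no single-gene probe set. Named genes were the 4 markers, the 30 highest genes after the exclusions stated in the text (histone, mitochondrial-genome and antigen receptor segment genes were also set aside), the highest 8 and lowest 4 members of each list, lineage-defining factors and receptors, and the 15 genes with the largest WT range. The members and lists were chosen with earlier results of these data known. Alternatives covered the choice of probe set, the background level, an added 16 before log2, quantile normalization, array weights, a variance trend, a level filter, both groups alone, a replicate block and each array left out.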

Additional observations from a re-analysis of the deposited data

How the results depend on the processing

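The count of genes above background in WT, 12014, ran from 8961 to 13727 under other percentiles of the sensory receptor genes, the mean of probe sets, 2 of 3 arrays as the requirement and quantile normalization, and was 12119 to 12167 with a WT array left out. It fell to 6656 when 84 keratin-associated and beta-defensin genes set the background. In that setting the thresholds were 7.48, 7.45 and 7.42, and Csf1r, for example, exceeds none of them and Sirpa only that of replicate 3. The lowest members of the cDC1, MHC class II, cell cycle and immediate early lists had WT means of 7.01, 6.06, 6.51 and 6.34, under each threshold. The statements that all measured members of these lists were above background therefore do not hold there. The count of members above background was classed as moved for 18 of the 30 lists in that setting. At the 99th percentile of the sensory receptor genes it was so classed for 12 lists. Of 773 named or listed genes, 43 moved by more than 5 percentile points under some setting, and without WT replicate 1 Kcnma1 moved by 43.3 points. In Zeb2 KO against WT, 4 genes were called in the reported fit, 75 with array weights, 1 with both groups alone, 0 with 16 added before log2, 8 with a replicate block and 0 to 165 with an array left out (165 without Zeb2 KO replicate 3, 22 without WT replicate 1, 0 without WT replicate 2, Zeb2 KO replicate 1 or Zeb2 KO replicate 2). In Nfil3 Zeb2 DKO, 1 was called in the reported fit, 23 with array weights, 2 with both groups alone, 1 with a replicate block and 1 to 7 with an array left out. In Zeb2 Id2 DKO, 286 were called in the reported fit, 1076 with array weights, 554 with both groups alone, 183 with a replicate block and 67 to 760 with an array left out (760 without Zeb2 KO replicate 3; 67 and 88 without a Zeb2 Id2 DKO array; 136 and 120 without WT replicate 2 and 3). Leaving out an array of a pair leaves 1, which is taken to vary like the other groups. Correlations of deviations between WT arrays and same-numbered mutant arrays ran from -0.31 to 0.16. In a group of 2 arrays the deviations mirror each other, so this check cannot tell whether the numbers pair samples. Genes of the 200 highest in WT were called under array weights in Zeb2 Id2 DKO (8, Cxcr4 and Jun among them), with both groups alone (4), and with an array left out (at most 6, without Zeb2 KO replicate 3). For called list members, 1019 of the alternative values kept their call and 313 lost it, and none turned direction. The cause of these shifts was not tested.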

Other observations

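Other list members were also high in WT. Slamf7, a receptor of the SLAM family, read 11.59, 11.65 and 11.65, and Cd180, a relative of Toll-like receptors best known on B cells, read 10.54, 10.54 and 10.56, with no excess in replicate 1. Ahr, the aryl hydrocarbon receptor gene, read 11.22, 11.18 and 11.30, and Etv3 read 11.11, 11.17 and 11.36. Fcrla and Fcrl1, which belong to the B cell list, read 8.93, 9.15 and 8.86 and 8.76, 8.80 and 8.33, so neither was highest in replicate 1, unlike 16 of the 20 genes of that list. Klrk1, which encodes NKG2D, was the highest member of the NK cell list at 8.81, 8.32 and 8.82.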
